A study of Bos taurus with 2 samples.

Results

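Nuclear transport genes were compared between 1 pool of bovine IVF embryos injected as zygotes with siRNA against CDKN1C and 1 pool of sham-injected embryos. They comprise the nucleoporins, the importins and exportins, and the regulators of the small GTPase RAN. Members were taken by gene symbol: NUP, KPNA, KPNB, IPO or TNPO followed by a number, any symbol beginning with XPO, and RAN, RANBP1, RANBP2, RANGAP1, RCC1, CSE1L, TPR, RAE1 and SEH1L. This gave 51 of the 21209 gene symbols, and 38 of the 51 averaged at least 1 FPKM over both pools, as did 7984 genes in all. FPKM is the number of sequenced fragments scaled to transcript length and, here, normalized by the upper quartile of each library. Levels of different genes are set side by side on this scale. The RNA was amplified before sequencing, and how far that step shifted the levels of different genes against each other was not tested.

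Embryos of the CDKN1C-siRNA-injected pool received siRNA against this cell-cycle inhibitor into the cytoplasm. Those of the sham-injected pool had the zona pierced with the needle but received no siRNA, so the pools differ in the presence of any siRNA as well as in its target. Embryos of both pools came from the same IVF system, and the number of embryos in a pool, their sex and the day of collection of these particular pools are not given in the sources used here. Each group is a single library of amplified pooled RNA, so no value has an error, no test between the pools was possible, and the read depth behind each FPKM value is unknown. Differences given as log2 are log2((injected FPKM + 1)/(sham FPKM + 1)), a scale that understates the change of low genes, while fold values are plain ratios of FPKM.

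CDKN1C itself was 14.6 FPKM in injected embryos and 49.5 FPKM in sham embryos. The labelled tissue was checked with defining markers of the blastocyst. All 7 trophectoderm markers and all 3 epiblast markers were at or above 1 FPKM in both pools, but the trophectoderm markers summed to 7530 FPKM in injected embryos and 17521 FPKM in sham embryos, and the epiblast markers to 75.7 FPKM in injected and 199.9 FPKM in sham embryos. The trophectoderm sum was carried by the keratins, KRT8 at 1611 FPKM in injected and 5760 FPKM in sham embryos and KRT18 at 5389 FPKM in injected and 11245 FPKM in sham embryos, and 2 of the 7 markers were higher in injected embryos, IFNT2 at 135 FPKM in injected and 31.1 FPKM in sham embryos and TFAP2A at 3.37 FPKM in injected and 1.69 FPKM in sham embryos. Of 4 hypoblast markers 2 reached 1 FPKM in each pool, and SOX17 was listed at 0 in both, with a sum of 16.6 FPKM in injected and 15.6 FPKM in sham embryos. The 3 blood markers summed to 13.0 FPKM in injected and 13.2 FPKM in sham embryos, nearly all of it HBA. The 6 markers of cumulus and granulosa cells summed to 11.5 FPKM in injected embryos and 26.0 FPKM in sham embryos, with PTX3 at 0 in both, and most of that gap came from HSD3B1, at 3.29 FPKM in injected and 15.7 FPKM in sham embryos. The part of these marker differences in the results below was not tested, and in pooled embryos fewer cells of a type and less RNA per cell cannot be told apart. Over all 7984 genes the median log2 difference was -0.17, so that genes were on balance lower in injected embryos as deposited.

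The nuclear pore complex is a ring-shaped channel through the nuclear envelope, built from many copies of its nucleoporins. Scaffold nucleoporins form outer rings (the Y complex) and an inner ring, others with phenylalanine-glycine repeats fill the central channel, and further ones make cytoplasmic filaments and a nuclear basket. Importins carry proteins inward and exportins carry proteins and RNAs outward, and the gradient of RAN bound to GTP, high in the nucleus, tells them where to load and release. In early embryos this machinery has to supply every newly formed nucleus with histones, transcription factors and replication proteins.

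The 38 genes past the limit ranged in mean level from 1.19 to 804 FPKM. RAN was 883 FPKM in injected embryos and 724 FPKM in sham embryos, the highest of the 38 genes in both. RANBP1 followed at 262 FPKM in injected embryos and 331 FPKM in sham embryos, and the importin alpha gene KPNA2 came next at 56.3 FPKM in injected and 63.6 FPKM in sham embryos. These 3 kept their order in both pools, and together with NUP62 they were the only members that averaged at least 20 FPKM. RAN alone held 62.9% of the FPKM of all 51 members in injected embryos and 55.1% in sham embryos. The median member was at 5.16 FPKM in injected embryos and 4.27 FPKM in sham embryos, and 31 of the 38 had means below 10 FPKM. From the fourth place on the order differed, with SEH1L in that place in injected embryos and NUP62 in sham embryos.

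**Figure D1:**
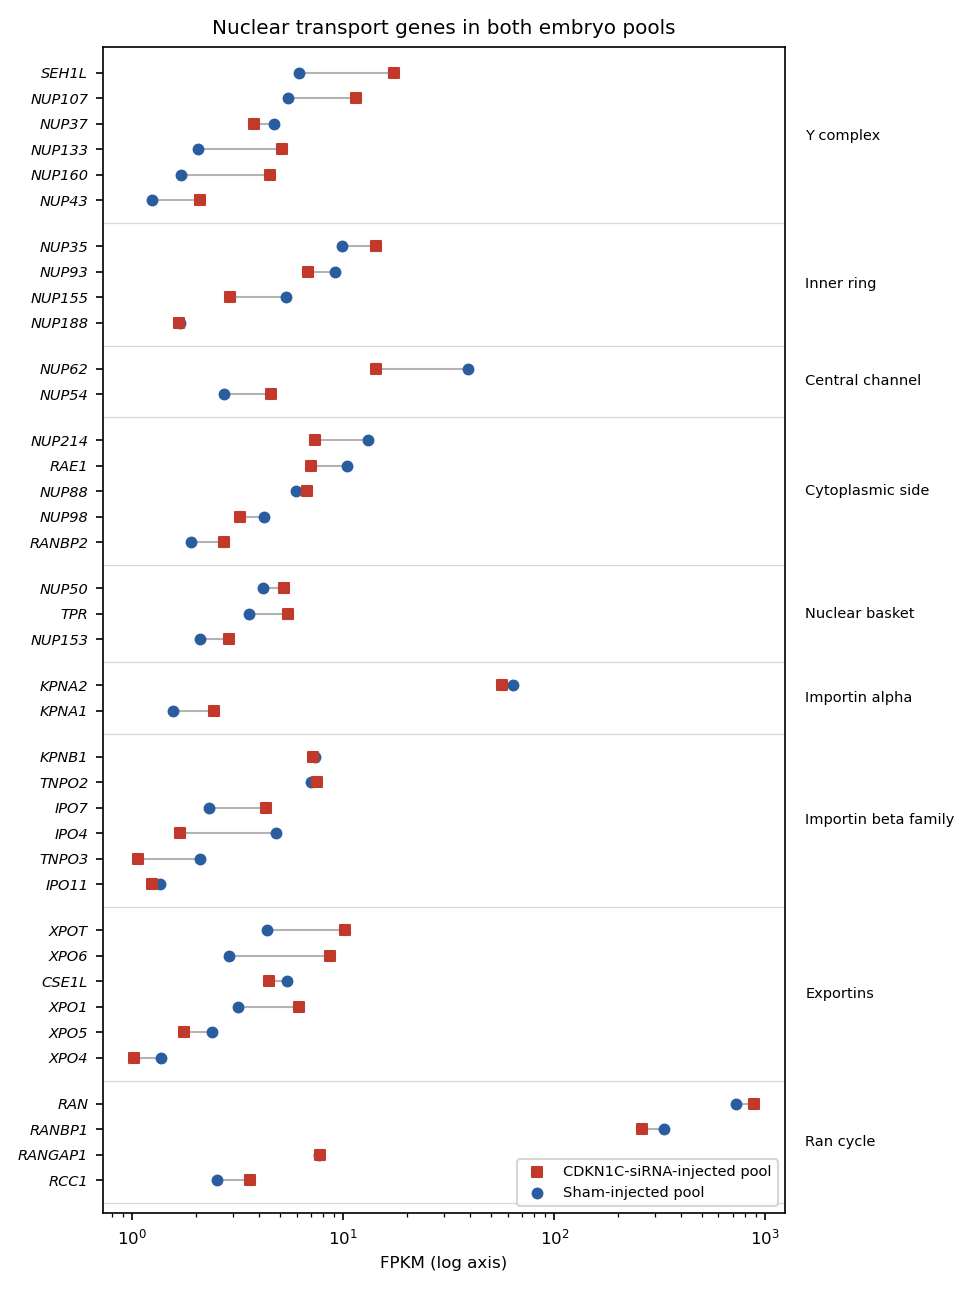
FPKM (horizontal, log axis) of the 38 nuclear transport genes that averaged at least 1 FPKM, grouped by role, in the CDKN1C-siRNA-injected pool (red squares) and the sham-injected pool (blue circles), 1 library each, with a grey line joining the values of a gene. In the Y complex the red squares lie to the right of the blue circles for every gene but NUP37, while NUP62, IPO4 and TNPO3 have the red square to the left.

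Of the 38 genes, 5 were at least 2-fold higher in injected embryos on the log2 scale with 1 FPKM added and 2 were at least 2-fold lower, against 4.92% and 15.7% of all 7984 genes. The higher genes were SEH1L, XPO6, XPOT, NUP160 and NUP133, and the lower ones were NUP62 and IPO4. At a limit of 1.5-fold, 8 of the 38 were higher and 5 were lower, against 14.9% and 30.5% of all genes. Counting direction alone, 21 of the 38 were higher and 17 lower, which is 55.3% higher beside 41.7% of all genes. The median log2 difference of the 38 was 0.12, and their quartiles were -0.29 and 0.50, beside -0.73 and 0.33 for all genes. The 13 members under the limit, with means from 0.0128 to 0.880 FPKM, had 6 higher and 7 lower values in injected embryos.

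Level moved with these differences, since genes above 20 FPKM had a lower median than those between 1 and 20 FPKM, -0.38 beside -0.08. Among the 34 members between 1 and 20 FPKM, 5 were at least 2-fold higher and 1 was at least 2-fold lower, against 5.29% and 13.7% of the 5842 genes of that range. The scaling changed the counts. With both pools brought to the same total FPKM, which multiplied the injected values by 1.32, 8 of the 38 were at least 2-fold higher and 1 lower, beside 12.6% and 7.56% of all genes, and 29 of the 38 and 58.8% of all genes were higher. The median of all genes was then 0.17, and that of the 38 was 0.47.

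**Figure D2:**
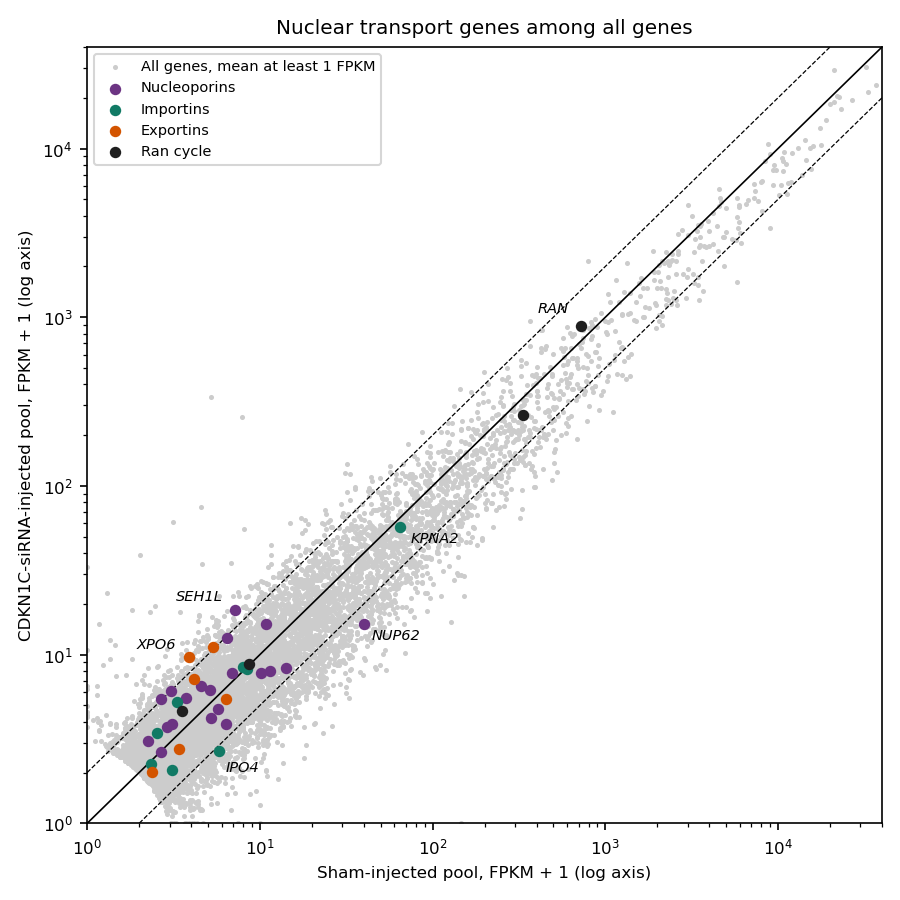
FPKM + 1 in injected embryos (vertical, log scale) against sham embryos (horizontal, log scale), from 1 library each, for 7984 genes (grey) and the 38 nuclear transport genes (coloured by class). Points on the solid line are equal and those on a dashed line differ 2-fold. SEH1L and XPO6 lie above the upper dashed line, NUP62 and IPO4 below the lower one.

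The outer-ring genes had the highest median difference of the role groups as deposited. Their median of 0.98 was 0.74 after a fit on locus length and 0.70 after a fit on local gene density. It was 0.51 with 5 FPKM added in place of 1 FPKM and 1.34 at equal total FPKM. The Y complex is the scaffold that forms both outer rings of the pore and seeds its assembly on chromatin after mitosis. In this group 6 members were placed. SEH1L, a propeller-shaped subunit that also serves in a nutrient-sensing complex on lysosomes, was 17.5 FPKM in injected embryos and 6.15 FPKM in sham embryos, 2.84-fold higher with a log2 difference of 1.37. It lies on chromosome 24 of bosTau7 from 44395398 to 44415236, and 1.63% of all genes had a difference as high or higher.

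The scaffold subunit genes NUP160, NUP133 and NUP107 of the Y were higher as well. NUP160 was 4.48 FPKM in injected embryos and 1.69 FPKM in sham embryos, 2.65-fold higher. NUP133 was 5.13 FPKM in injected and 2.06 FPKM in sham embryos, 2.49-fold higher, and NUP107 was 11.5 FPKM in injected and 5.44 FPKM in sham embryos, 2.12-fold higher. With 1 FPKM added, the log2 differences of these 3 scaffold genes were close together, at 1.02, 1.0 and 0.96. On that scale the 2-fold limit parted NUP107 from its partners by a small margin. With 0.1 FPKM added instead they were 1.35, 1.28 and 1.07, all past 2-fold, and with 5 FPKM 0.50, 0.52 and 0.66. NUP107 was 2.25 times the level of NUP133 in injected embryos and 2.65 times its level in sham embryos.

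Further propeller subunits went different ways. NUP43 was 2.09 FPKM in injected embryos and 1.24 FPKM in sham embryos, a log2 difference of 0.46. NUP37 was lower after injection, at 3.78 FPKM in injected and 4.71 FPKM in sham embryos, with a log2 difference of -0.25, which became 0.07 at equal total FPKM. SEH1L and NUP37 were therefore 4.62-fold apart in injected embryos and 1.31-fold apart in sham embryos. Over the 6 genes the median log2 difference was 0.98, with 5 higher as deposited. The share of all genes that were higher was 41.7% as deposited and 58.8% at equal total FPKM. The summed level of the 6 genes was 44.5 FPKM in injected embryos and 21.3 FPKM in sham embryos. SEC13, a further Y complex gene outside the rule, is not in that sum. With it the order of the sums turned, to 214 FPKM in injected embryos and 246 FPKM in sham embryos, while the median over the 7 genes was 0.96. The Y complex gene NUP85 was not found under that symbol. NUP96 is a product of the NUP98 gene, which was placed with the cytoplasmic side and was lower as deposited. Both sums therefore cover only a part of the complex.

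In the inner ring, which anchors the pore to the membrane, 3 of the 4 genes past the 1 FPKM limit were lower as deposited, where 58.3% of all genes were lower. NUP188 counts among the 3 with a log2 difference of only -0.007. NUP155, a membrane-binding scaffold subunit, was 2.89 FPKM in injected embryos and 5.35 FPKM in sham embryos, 1.85-fold lower. NUP93, which holds the central channel proteins in place, was 6.77 FPKM in injected and 9.12 FPKM in sham embryos, 1.35-fold lower. NUP35, a small linker subunit, was the exception in the other direction, at 14.2 FPKM in injected embryos and 9.84 FPKM in sham embryos.

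The large scaffold gene NUP188 was almost equal between the pools as deposited, at 1.66 FPKM in injected embryos and 1.68 FPKM in sham embryos. Its relative NUP205 fell below the limit on mean level, at 0.738 FPKM in injected and 1.02 FPKM in sham embryos. The NUP35 level was 4.92 times that of NUP155 in injected embryos and 1.84 times in sham embryos. The median log2 difference of the inner ring was -0.19 as deposited and 0.11 at equal total FPKM, while the summed level of its 5 genes was 26.3 FPKM in injected embryos and 27.0 FPKM in sham embryos.

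The central channel gave the lowest log2 difference among all members. NUP62, whose repeat domain forms part of the permeability barrier, was 14.3 FPKM in injected embryos and 39.2 FPKM in sham embryos, 2.74-fold lower with a log2 difference of -1.39. Among all genes, 6.38% were as low or lower. The gene lies on chromosome 18 of bosTau7 from 56154872 to 56181482, at a locus that the files also list for ATF5 with 0 FPKM in both pools. NUP54, which assembles with NUP62 into 1 coiled-coil complex, was higher instead, at 4.53 FPKM in injected embryos and 2.73 FPKM in sham embryos.

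NUP62 was therefore 3.16 times the level of NUP54 in injected embryos and 14.3 times in sham embryos. The other partner of this complex is listed under its older symbol NUPL1, outside the rule for members, and was singled out here after its values were seen. It was 4.49 FPKM in injected embryos and 2.37 FPKM in sham embryos, a log2 difference of 0.70. The 3 genes of the complex thus differed in direction, with NUP62 on 1 side and both partners on the other.

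On the cytoplasmic side, where exported cargo leaves the pore, 3 of 5 genes were lower in injected embryos as deposited, a share near that of all genes. NUP214, the filament protein that exportin complexes dock on, was 7.36 FPKM in injected embryos and 13.1 FPKM in sham embryos, 1.78-fold lower. Its binding partner NUP88 was 6.76 FPKM in injected and 5.93 FPKM in sham embryos. The pair stood at a ratio of 1.09 in injected embryos and 2.21 in sham embryos.

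The mRNA export factor RAE1 was 7.02 FPKM in injected embryos and 10.4 FPKM in sham embryos, 1.49-fold lower. NUP98, the repeat nucleoporin that RAE1 binds, was 3.23 FPKM in injected and 4.20 FPKM in sham embryos, lower as deposited but with a log2 difference of 0.02 at equal total FPKM. Both genes of this pair were thus lower as deposited. RANBP2, the largest filament protein, was 2.71 FPKM in injected embryos and 1.90 FPKM in sham embryos. The median log2 difference of these 5 genes was -0.30 as deposited and 0.02 at equal total FPKM.

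All 3 genes of the nuclear basket, the fibrous structure on the inner face of the pore, were higher in injected embryos. Of all genes 41.7% were higher as deposited and 58.8% at equal total FPKM. TPR, the filament protein of the basket, was 5.49 FPKM in injected embryos and 3.56 FPKM in sham embryos. NUP153, which fixes TPR to the pore, was 2.86 FPKM in injected and 2.09 FPKM in sham embryos, and NUP50, a cofactor that helps importins to release cargo, was 5.20 FPKM in injected and 4.14 FPKM in sham embryos. None of these differences reached 1.5-fold on the log2 scale, and that of NUP153 was -0.03 after a fit on local gene density. The locus of TPR is also listed for PRG4, at 0.467 FPKM in injected embryos and 0.0560 FPKM in sham embryos. The membrane nucleoporin gene NUP210 was nearly silent, at 0.125 FPKM in injected and 0.0902 FPKM in sham embryos, and its relative NUP210L was at 0.0636 FPKM in injected and 0.0434 FPKM in sham embryos.

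**Figure D3:**
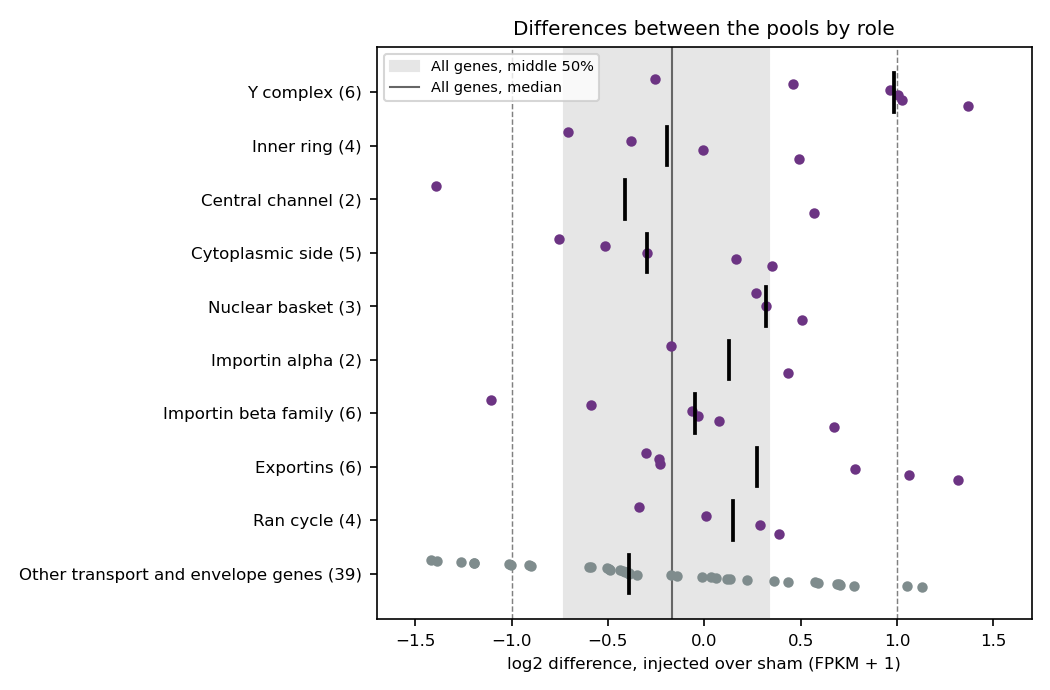
Log2 difference, injected over sham with 1 FPKM added (horizontal), for the nuclear transport genes by role (purple points) and for 39 other genes of nuclear transport and the envelope (grey points), with the number of genes in brackets and the median as a black bar. The grey band spans the quartiles of all 7984 genes, -0.73 to 0.33, the thin line their median of -0.17, and the dashed lines 2-fold; the Y complex has its median at 0.98.

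Among importin alpha genes, the adaptors that read classical nuclear localization signals, KPNA2 made up nearly the whole level. KPNA2 was 56.3 FPKM in injected embryos and 63.6 FPKM in sham embryos, a log2 difference of -0.17 that turned to 0.22 at equal total FPKM. KPNA1 was 2.44 FPKM in injected and 1.55 FPKM in sham embryos, so that KPNA2 stood 23.0 times above it in injected embryos and 41.0 times in sham embryos. All 7 importin alpha genes together held 60.4 FPKM in injected embryos and 66.6 FPKM in sham embryos.

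The other adaptors had means under 1 FPKM. KPNA3 was 0.885 FPKM in injected embryos and 0.415 FPKM in sham embryos, and its close relative KPNA4 was 0.583 FPKM in injected and 0.611 FPKM in sham embryos. KPNA6 was 0.160 FPKM in injected and 0.239 FPKM in sham embryos, and KPNA5 was at 0.0162 FPKM in injected and 0.00940 FPKM in sham embryos. KPNA7, an importin alpha known from bovine oocytes and early embryos, was 0.0582 FPKM in injected embryos and 0.125 FPKM in sham embryos. At these levels the values of near relatives may share reads, and no difference is drawn from them.

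Importin beta receptors, which ferry cargo through the channel, included the lowest log2 difference among the carriers. IPO4, a receptor for histones and ribosomal proteins, was 1.68 FPKM in injected embryos and 4.79 FPKM in sham embryos, 2.84-fold lower with a log2 difference of -1.11. IPO7, which takes similar basic cargo, was 4.28 FPKM in injected and 2.31 FPKM in sham embryos, 1.85-fold higher. The ratio of IPO7 to IPO4 was 2.54 in injected embryos and 0.482 in sham embryos, so the order of the 2 genes was reversed between the pools.

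KPNB1, the main receptor and partner of importin alpha, was 7.20 FPKM in injected embryos and 7.38 FPKM in sham embryos. TNPO2, a transportin for RNA-binding proteins, was 7.48 FPKM in injected and 7.03 FPKM in sham embryos. Both were close to equal as deposited, and the sign for KPNB1 changed at equal total FPKM, to 0.32. TNPO3, the carrier of serine-arginine splicing factors, was 1.06 FPKM in injected embryos and 2.09 FPKM in sham embryos, 1.98-fold lower. IPO11 was 1.24 FPKM in injected and 1.35 FPKM in sham embryos.

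The remaining receptor genes of this family lay under the limit on mean level. TNPO1, the best-studied transportin, was 0.907 FPKM in injected embryos and 0.614 FPKM in sham embryos. IPO5 was 0.434 FPKM in injected and 0.656 FPKM in sham embryos, IPO8 was 0.256 FPKM in injected and 0.107 FPKM in sham embryos, and IPO13, which works in both directions, was 0.133 FPKM in injected and 0.176 FPKM in sham embryos. Summed over 10 genes the family was at 24.7 FPKM in injected embryos and 26.5 FPKM in sham embryos. The median log2 difference over its 6 genes past the limit was -0.05 as deposited and 0.25 at equal total FPKM.

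Of the 6 exportins past the 1 FPKM limit, 3 were higher by more than 1.5-fold as deposited, against 14.9% of all genes. The other 3 were slightly lower, where 58.3% of all genes were lower. XPO6, which removes actin from the nucleus, was 8.64 FPKM in injected embryos and 2.88 FPKM in sham embryos, 3.0-fold higher, the largest ratio in this direction among the 38 genes. It lies on chromosome 25 of bosTau7 from 27472184 to 27591837, and 1.90% of all genes had a log2 difference as high or higher than its 1.31. XPOT, the exporter of tRNA, was 10.1 FPKM in injected embryos and 4.33 FPKM in sham embryos, 2.34-fold higher. XPO1, the general receptor for proteins with leucine-rich export signals, was 6.14 FPKM in injected and 3.15 FPKM in sham embryos, 1.95-fold higher.

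The other exportin genes were lower as deposited. XPO5, which exports precursors of microRNAs, was 1.75 FPKM in injected embryos and 2.39 FPKM in sham embryos, at a locus shared with POLR1C at 26.1 FPKM in injected and 41.7 FPKM in sham embryos. CSE1L, which returns importin alpha to the cytoplasm, was 4.44 FPKM in injected and 5.40 FPKM in sham embryos, and XPO4 was 1.01 FPKM in injected and 1.36 FPKM in sham embryos. Their log2 differences lay between -0.30 and -0.23, and that of CSE1L was 0.10 at equal total FPKM. XPO7 was under the limit, at 0.532 FPKM in injected embryos and 0.864 FPKM in sham embryos.

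Summed over 7 exportin genes the level was 32.7 FPKM in injected embryos and 20.4 FPKM in sham embryos, a ratio of 1.60, whereas the importin beta family was at a ratio of 0.931. XPO1 stood at 0.853 of the level of KPNB1 in injected embryos and at 0.427 in sham embryos. The tRNA and microRNA exporters XPOT and XPO5 were 5.80-fold apart in injected embryos and 1.81-fold apart in sham embryos. The median log2 difference of the 6 exportins past the limit was 0.28, and it was -0.23 when XPO7 was included.

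Genes of the RAN cycle differed by less than 1.5-fold as deposited, but at equal total FPKM the log2 differences of RAN and RCC1 were 0.68 and 0.71. RAN was 1.22-fold higher in injected embryos by the values given above, and RANBP1, which helps to release RAN from export complexes, was 1.27-fold lower as deposited, with a log2 difference that turned to 0.06 at equal total FPKM. The ratio of RAN to RANBP1 was 3.38 in injected embryos and 2.18 in sham embryos. RCC1, the chromatin-bound exchange factor that loads RAN with GTP, was 3.62 FPKM in injected embryos and 2.53 FPKM in sham embryos.

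RANGAP1, the cytoplasmic activator of GTP hydrolysis, was 7.77 FPKM in injected embryos and 7.70 FPKM in sham embryos. The activator thus stood at 2.14 times the level of the exchange factor RCC1 in injected embryos and at 3.05 times in sham embryos. The median log2 difference of the 4 genes was 0.15 as deposited and 0.53 at equal total FPKM. RAN itself was at 0.64 after a fit on locus length and at -0.10 after a fit on local gene density. Together they held 1156 FPKM in injected embryos and 1065 FPKM in sham embryos.

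A list of 57 other genes of nuclear transport and the nuclear envelope was set beside the members. Of these 51 were in the files and 39 had a mean of at least 1 FPKM. Among the 39, 2 were higher by 2-fold or more and 7 were lower by as much, beside 4.92% and 15.7% of all genes. The median log2 difference was -0.39. By direction alone 15 were higher and 24 lower, which is 38.5% higher, a share near the 41.7% of all genes. At equal total FPKM the median was close to 0. The list and the members were not tested against each other.

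The lowest of this list was NXT1, a subunit of the mRNA export receptor, at 44.9 FPKM in injected embryos and 121 FPKM in sham embryos. THOC6, of the complex that couples transcription to mRNA export, was 17.7 FPKM in injected and 47.8 FPKM in sham embryos, and LEMD2, an inner membrane protein, was 17.6 FPKM in injected and 43.7 FPKM in sham embryos. These 3 genes were between 2.48-fold and 2.71-fold lower, a size like that of NUP62. The highest was NCBP1, the large subunit of the nuclear cap-binding complex, at 5.40 FPKM in injected embryos and 1.93 FPKM in sham embryos.

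Named after its value was seen, SEC13, a partner of SEH1L in the Y complex that also coats transport vesicles, was 169.5 FPKM in injected embryos and 224 FPKM in sham embryos. Its level was far above those of the other Y complex genes in both pools, and its log2 difference was -0.40.

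Gene surroundings moved with the difference between the pools. Across all 7984 genes the log2 difference had a Pearson correlation of -0.37 with the number of other loci starting within 1 Mb (Spearman -0.42) and of 0.25 with log10 locus length (Spearman 0.29). Genes are not independent replicates and all share the same 2 libraries. Among the 38 members the correlation with the number of loci nearby was -0.37 (Spearman -0.31), and without NUP62 and IPO4 it was -0.08 (Spearman -0.19). Those are the 2 members with the lowest differences, and without the 2 in the densest surroundings instead, NUP62 and NUP88, it was -0.20 (Spearman -0.26), a choice added after the data were seen. NUP62 had 115 loci within 1 Mb, NUP88 had 72 with a log2 difference of 0.16, IPO4 had 71, XPO6 had 67 and NUP160 had 60, beside a median of 25 over the members.

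With locus length the members had a correlation of 0.11 (Spearman 0.02), and their median locus of 42454 bases was longer than that of all genes, 18954 bases. After a fit on length SEH1L, XPO6 and NUP62 remained past 2-fold, at 1.39, 1.06 and -1.48, NUP214 was at -1.03, and IPO4 was at -0.87. After a fit on the number of nearby loci SEH1L was at 1.14, XPO6 at 1.77 and NUP160 at 1.43, and NUP155 at -1.09, while NUP62 was at -0.81 and IPO4 at -0.63. The part of gene surroundings in each difference was not tested.

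**Figure D4:**
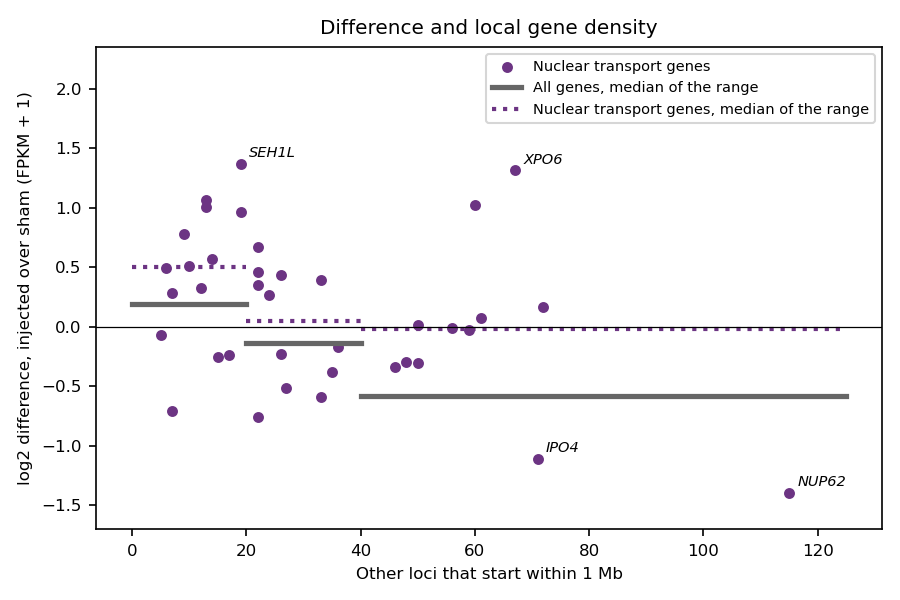
Log2 difference, injected over sham with 1 FPKM added (vertical), against the number of other loci that start within 1 Mb (horizontal) for the 38 nuclear transport genes (purple points). Lines give the medians for ranges of fewer than 20, 20 to 39 and 40 or more loci, over all genes (grey, 0.19, -0.14 and -0.59) and over the members (dotted, from 14, 12 and 12 genes), and NUP62 stands at the far right at 115 loci.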

How the data were processed

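Total RNA of each embryo pool was amplified, sequenced on an Illumina HiSeq, and mapped by the authors to bosTau7 with TopHat. The authors estimated FPKM values with Cufflinks 2.0.2, upper-quartile normalized and corrected for sequence bias, and deposited 1 FPKM value per locus. The gene annotation is not given in the sources used here. Positions are those of the files, and 6 of the 38 genes past the limit share their locus with another listed gene.

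Loci without a symbol (615 of 22220) were left out and loci with the same symbol summed. Members, role groups and the list of other transport genes came from textbook knowledge and were chosen with earlier results of these data known. The rule names a member with its values where either exceeds 0.1 FPKM, and values of NUP210L and KPNA5 were added to it. From the other list the 3 highest and 3 lowest fall under the rule, of which some are not reported here. With 1 library per group no test was run. Alternatives were a pseudocount of 0.1 or 5 FPKM, no filter or a mean of at least 5 FPKM, 2 other scalings, the highest locus per symbol, folds of 1.5 and 4, and loess fits with a span of 0.3 on locus length and, added after the data were seen, on loci within 1 Mb. All 51 symbols were found in the RefSeq gene table, whose assembly differs, so no coordinate was taken from it. Sequences were not used here. Computations used Python 3.11.15 with statsmodels 0.14.6, matplotlib 3.10.9, NumPy 2.4.6 and pandas 2.3.3.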

Additional observations from a re-analysis of the deposited data

How the results depend on the processing

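With single libraries the alternatives show dependence on processing only, not the spread between pools, and leaving out a replicate was not possible. No paired analysis was possible because each group has 1 library and no test was run. The median over the members stayed above 0 in each alternative, from 0.01 with no filter to 0.47 at equal total FPKM. The numbers of members at least 2-fold higher and lower, 5 and 2, were 1 and 1 with a pseudocount of 5 FPKM, 3 and 1 at a mean of at least 5 FPKM, 8 and 1 at equal total FPKM, and 3 and 1 after the fit on nearby loci, where NUP155 at -1.09 was the lower gene. Lower genes numbered 1 with the median of all genes set to 0, and higher genes 2 after the fit on locus length, where NUP62 and NUP214 were the lower ones. A fold of 1.5 gave 8 and 5, and a fold of 4 gave 0 and 0. At a mean of at least 5 FPKM the central channel, then NUP62 alone, was at -1.39 and the exportins at 1.19, since fewer genes were included. The Y complex was at 1.17 in that setting, just under the exportins. Among the 44 genes with a log2 difference tracked, 8 changed sign at equal total FPKM, 6 after the fit on nearby loci, and 3 each after the fit on length and with the median set to 0. SEH1L was past 2-fold in all 10 settings, NUP62 and XPO6 in 9 of 10 and XPOT in 7 of 10. NUP160 was past it in 7 of 9, NUP133 in 6 of 9 and IPO4 in 4 of 9. These counts include the main setting. The filter settings and the highest locus per symbol could not alter the value of these genes, which each have a single locus. Those settings therefore say nothing on how firm a value is. Except where fewer genes were included, the cause of the changes between settings was not tested.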
